A study of Rattus norvegicus with 65 samples.

Results

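Series 25L and series 25R are a pair of rat mammary tumor lines, named in the labels as Transplant Series 25 Left and Right. Each line holds 6 tumors, the primary tumor and transplants 1 to 5. They were chosen by their titles and paired by generation, which gave 12 of the 65 arrays in a study of 11 transplant series. Per the labels, the first tumors were induced by a carcinogen that is not named, and were then passed from host to host in syngeneic rats. The study collected tumors that differ in invasion and spread. All 12 tumors share that origin, tissue and handling, and no strain, age or treatment of the hosts is given. The labels do not say whether the left and right tumors arose in 1 animal. Each line is 1 line of descent with 1 array per generation, so its 6 arrays are related tumors and not independent replicates. The p-values below measure the spread over generations of these 2 lines, and at a single generation there is no test.

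The mammary gland is built of ducts and alveoli with an inner luminal layer and an outer myoepithelial layer, set in fibroblasts, fat, vessels and immune cells. Luminal alveolar cells make milk proteins when prolactin activates the transcription factor STAT5, and many hormone-dependent rat mammary tumors keep some of this secretory program. A transplanted tumor is a mixture of the passaged tumor cells and of stroma, vessels and leukocytes from its new host. In such bulk tissue, fewer cells of a type and less RNA per cell cannot be told apart.

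Epithelial markers were bright on all 12 arrays. The luminal adhesion gene Epcam lay between 10.92 and 11.31 on the log2 intensity scale in 25L, and between 11.22 and 11.55 in 25R. The basal keratin Krt5 lay between 10.80 and 11.87 in 25L and between 10.18 and 12.17 in 25R. The tumors in both lines thus carried RNA of both epithelial layers. Of the 3 adipocyte markers on the array, the fat droplet gene Plin1 was at the floor of the scale (5.31, where values carry no order) on all 12 arrays. Fabp4 was at the floor on 2 arrays of 25L and 1 of 25R, and reached 7.12 in 25L and 7.16 in 25R. Cfd was at the floor on 1 array of 25L and 0 of 25R, and reached 7.90 in 25L and 8.07 in 25R. Of the 5 markers of T and NK cells, Cd3d and Cd8a were mostly at the floor, while Cd3e, at 6.63 to 7.45 in 25L and 6.85 to 7.33 in 25R, Cd2 and Gzmb were above it on all 12 arrays. The deposited array medians ran from 155 to 171 on these 12 arrays. The ratio of 3' to 5' Gapdh probe sets, a sign of RNA integrity, was 0.884 to 1.11 in 25L and 0.954 to 1.12 in 25R.

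The first question was whether the lines stand apart as a whole. Correlations between arrays, computed over 8509 genes after removing each gene's mean over all 65 arrays, averaged 0.18 within 25L and 0.21 within 25R. Between 25L and 25R they averaged 0.20 at the same generation and 0.19 at different generations. These are descriptions across genes, which are not independent. A tumor was therefore about as similar to tumors of the other line as to those of its own. The closest of all other arrays was one of the same line for 4 of 6 tumors of 25L and for 2 of 6 tumors of 25R. Transplant 4 of 25L and transplant 1 of 25R were each other's closest array, at 0.70. Both primary tumors were closest to the primary tumor of series 13, at 0.50 for 25L and 0.67 for 25R, and transplant 4 of 25R was closest to transplant 4 of series 17, at 0.58. Tumors that were adjacent in descent were alike in 25L between transplants 1 and 2 (0.70) and between transplants 3 and 4 (0.65).

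No gene separated the lines over all generations. With limma, generation as a factor and Benjamini-Hochberg adjustment over 8509 genes, 0 genes (0%) were called higher and 0 (0%) lower in 25L, with no adjusted p under 0.965. Before adjustment, 285 genes (3.35%) had p under 0.05. The direction was the same in 6 of 6 generations for 185 genes (2.17%), which were 54 genes higher in 25L (0.635%) and 131 genes lower in 25L (1.54%). No gene was at least 2-fold apart in the same direction in 6 of 6 generations.

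The genes that follow were picked after their values were seen, as the 8 with the largest mean difference each way among genes on the same side in 6 of 6 generations, so their consistent side is how they were chosen. None passed the test, and all have an adjusted p of 0.965. In 25L the higher genes were Aldh3a1, Thrsp, Ckm, Tesc, Atp2a1, Crabp1, Gjb2 and Rb1, with mean differences between 0.75 and 2.14. The lower genes were Mme, Ifitm1, Cfi, Sema3c, Gpsm3, Pafah1b3, St6gal1 and Pepd, with mean differences between -1.65 and -0.64.

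Aldh3a1, an aldehyde dehydrogenase that detoxifies reactive aldehydes, had the largest mean difference of these genes. Its log2 levels were 6.31 in the primary tumor and 6.52, 6.78, 8.95, 9.31 and 10.96 in transplants 1 to 5 of 25L, against 5.89 and then 5.81, 5.53, 6.23, 6.17 and 6.33 in 25R. The level was higher in each later tumor of 25L and stayed within 1 log2 unit in 25R, and the primary tumor was the sole tumor of 25L not above every tumor of 25R. The mean difference was 2.14 ± 0.48 (SE, n = 6 pairs), and the difference widened by 0.85 per generation, with a limma adjusted p of 0.0615 for the trend.

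Mme encodes neprilysin, a cell-surface peptidase found on myoepithelial and stromal cells among others. Its log2 levels were 6.30, 5.31, 6.56, 5.84, 6.19 and 6.60 from the primary tumor to transplant 5 of 25L, against 7.21, 5.50, 7.65, 8.44, 9.37 and 8.53 in 25R. At transplant 1 Mme was at the floor in 25L and just above it in 25R, so the size of the gap there is a lower bound. The lines were farthest apart at transplant 4, and the mean difference was -1.65 ± 0.34 (SE, n = 6 pairs). Ifitm1, an interferon-induced membrane protein, differed by -1.18 ± 0.24 (SE), with its largest gap at transplant 4, at 8.46 in 25L and 10.78 in 25R. Sema3c, a secreted semaphorin that guides axons and vessels, differed by -0.86 ± 0.18 (SE), and its gap ranged from -1.65 at transplant 3 to -0.19 at transplant 5. Of the other lower genes, Cfi, which inactivates complement, and St6gal1, which adds sialic acid to glycoproteins, were farthest apart at transplant 3 (a second probe set of St6gal1 was 0.50 higher in 25L in the primary tumors), and Pepd, a dipeptidase that acts on collagen fragments, at transplant 1. The gap of these genes was thus not of one size over the generations.

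Among the other higher genes, Thrsp, a regulator of fatty acid synthesis in lactating mammary epithelium, differed by 1.68 on average but by 0.01 at transplant 1 and 4.42 at transplant 4. The other 2 probe sets of Thrsp gave mean differences of 1.52 and 1.47, but both were lower in 25L at transplant 1, with differences of -0.22 and -0.13, so they were not on the same side throughout. Crabp1, which binds retinoic acid in the cytoplasm, stood 0.18 to 0.71 higher in 25L up to transplant 3 and then 1.69 and 1.93 higher at transplants 4 and 5. Tesc, a calcium-binding protein, Gjb2, the gap junction protein of secretory epithelium, and Rb1, the retinoblastoma cell cycle brake, were farthest apart at transplants 3 and 4. Ckm and Atp2a1 are the creatine kinase and calcium pump of skeletal muscle. Of the 4 skeletal muscle markers on the array, Myh4 was at the floor on 5 of 6 arrays of 25L and 6 of 6 of 25R, and the summed log2 level of the 4 ran from 7.97 to 13.24 in 25L and from 7.94 to 12.07 in 25R. The part of muscle tissue in the difference of these genes was not tested.

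**Figure D1:**
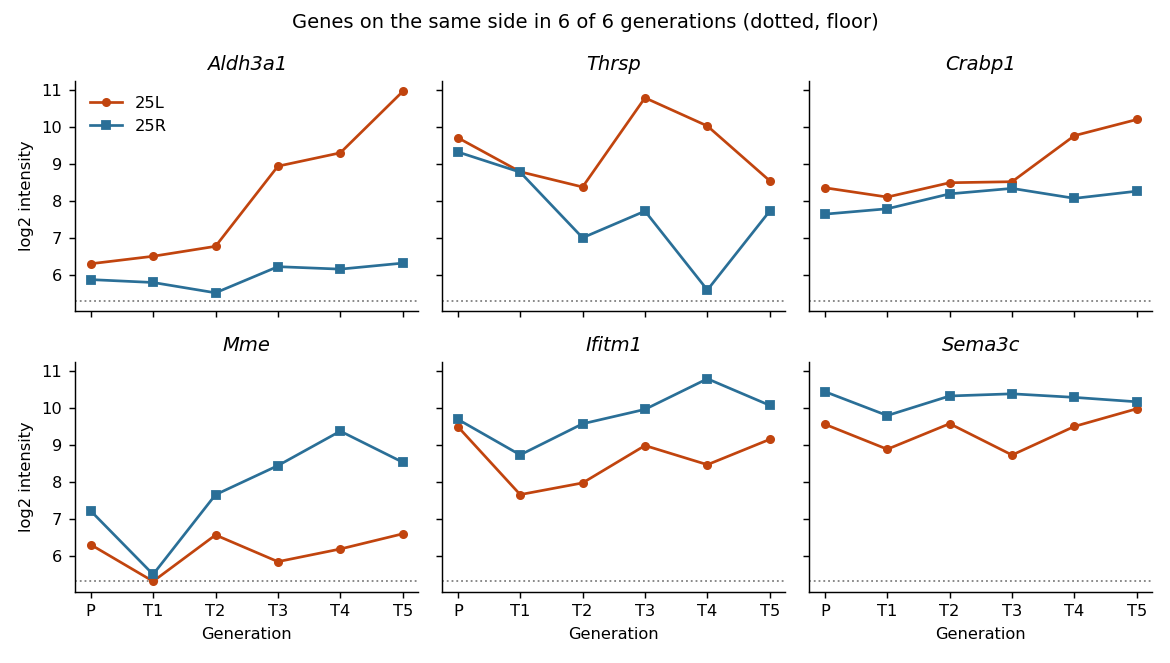
Log2 intensity (y axis) of 6 genes on the same side in 6 of 6 generations, against generation (x axis, P primary tumor, T1 to T5 transplants), with circles for 25L, squares for 25R and a dotted line at the floor of 5.31; each point is 1 array. Aldh3a1 reached 10.96 in 25L at transplant 5, against 6.33 in 25R, while the gap of Sema3c was nearly closed there.

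The second question was at which generation the lines diverged. At least 2-fold differences between the paired tumors, with no test possible, were found for 320 genes in the primary tumors (3.76%), 435 at transplant 1 (5.11%), 426 at transplant 2 (5.01%), 494 at transplant 3 (5.81%), 604 at transplant 4 (7.1%) and 256 at transplant 5 (3.01%). By this count the lines were farthest apart at transplant 4 and nearest at transplant 5. By the correlation of the paired tumors, transplant 4 was also farthest apart, at -0.06, but the primary tumors were nearest, at 0.42, and transplants 1, 2, 3 and 5 were at 0.22, 0.09, 0.29 and 0.27. Over all generations 1621 genes (19.1%) were at least 2-fold apart at least once, and 1018 (12%) in exactly 1 generation. The sign was not kept by 337 genes (3.96%), which were at least 2-fold higher in one generation and at least 2-fold lower in another.

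Other pairs of series at the same generation give a scale for these counts. Fewer genes were 2-fold apart in 14 of 54 other pairs for the primary tumors, 22 of 54 at transplant 1, 14 of 54 at transplant 2, 9 of 54 at transplant 3 and 15 of 54 at transplant 4. At transplant 5 none of 44 other pairs had fewer than the 256 genes of the left and right tumors. The lowest of those pairs had 285 and their median was 1041.5. The pairs share series with each other, so these are counts and not a test. All pairs were counted over the same genes, which were filtered by their mean level in the left and right lines alone. Genes that were dim in these lines but bright in other series were thus left out. The effect of this choice on the place of the left and right tumors among the pairs was not tested.

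The direction was uneven. In the primary tumors 218 genes were higher and 102 lower in 25L, and at transplant 5 183 were higher and 73 lower. At transplant 1 121 were higher and 314 lower, and at transplant 2 139 were higher and 287 lower. The median of all genes was itself -0.20 at transplant 1 and -0.12 at transplant 2, and between -0.07 and 0.05 at the other generations. Quantile normalization brought those medians to -0.06 and -0.03, and the split to 198 higher and 315 lower at transplant 1 and to 216 higher and 272 lower at transplant 2. With the arrays as deposited, 401 genes were higher and 140 lower at transplant 3, against 288 and 206 after scaling, and 170 were higher and 229 lower at transplant 2. The surplus of lower genes at transplants 1 and 2 was thus smaller under other scalings, and the list values below at these generations stand beside shifts of that size.

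**Figure D2:**
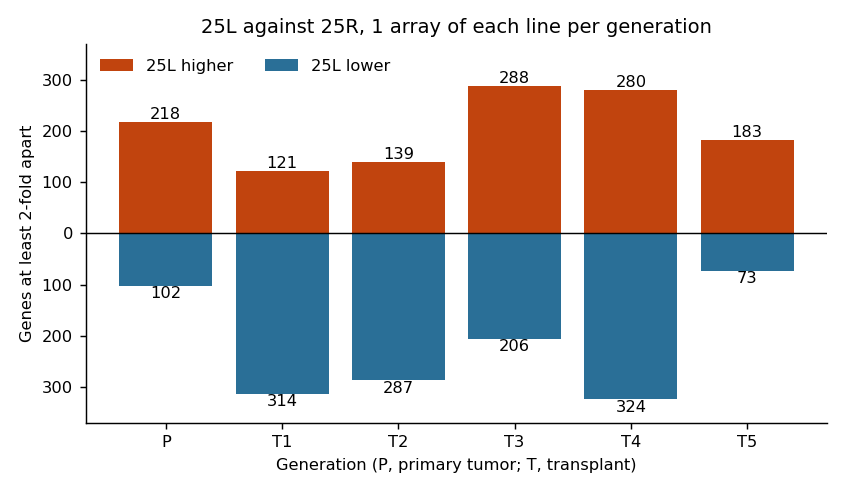
Number of genes at least 2-fold higher (up) and lower (down) in 25L than in 25R at each generation (x axis), of 8509 genes tested. Transplant 4 had the most with 280 higher and 324 lower, and transplant 5 the fewest with 183 higher and 73 lower.

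Pairs of generations differed in which genes were apart. The differences across 8509 genes correlated at -0.49 between the primary tumors and transplant 4, at -0.37 between transplants 1 and 5, at 0.42 between transplants 1 and 2, and at 0.35 between transplants 3 and 4. As a description, the pattern in the primary tumors was opposite to that at transplant 4 on balance. Along the lines, the largest step in 25L was from the primary tumor to transplant 1, with 727 genes at least 2-fold different between the 2 tumors, and the smallest was from transplant 1 to 2, with 119. In 25R the largest step was from transplant 3 to 4, with 448 genes, and the smallest was from transplant 2 to 3, with 224.

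**Figure D3:**
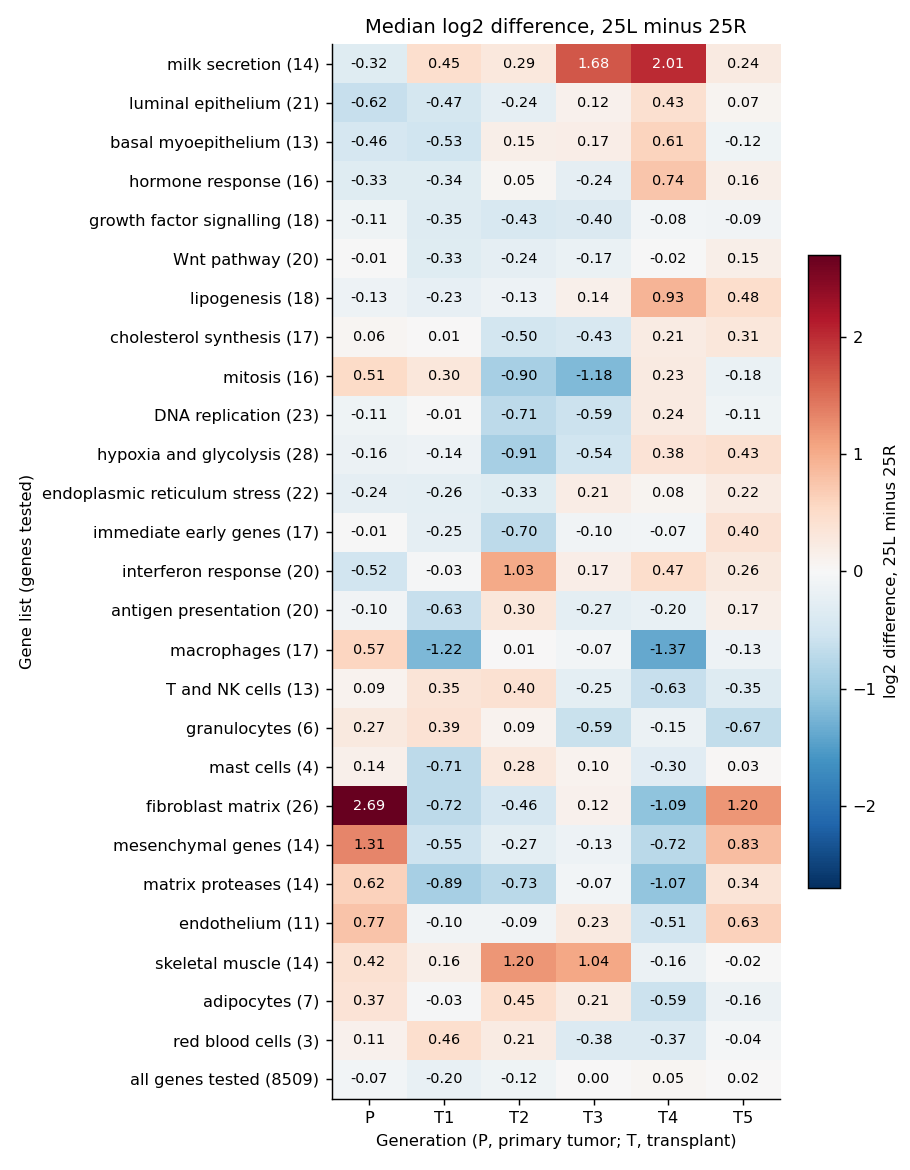
Median log2 difference, 25L minus 25R, of gene lists (rows) at each generation (columns), as a colour scale. Matrix genes of fibroblasts are at 2.69 in the primary tumors and -1.09 at transplant 4, and milk genes are at 1.68 and 2.01 at transplants 3 and 4.

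In the primary tumors the 25L tumor had far more RNA of connective tissue. Of 26 fibroblast matrix genes, 22 were at least 2-fold higher and 0 lower in 25L (background 2.56% higher and 1.2% lower over all genes), with a median difference of 2.69. Of 14 mesenchymal genes 11 were at least 2-fold higher (median 1.31), as were 5 of 11 endothelial genes (median 0.77). Col1a1, the main chain of type I collagen, had a log2 level of 12.08 in the primary tumor of 25L, against 8.65 in 25R. Lum, a proteoglycan of collagen fibrils, was at 11.23 in 25L and 7.05 in 25R. Lgals1, a galectin abundant in stroma, was at 10.56 in 25L and 6.81 in 25R. Each of these genes was more than 3 log2 units lower in the primary tumor of 25R.

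The 4 genes singled out at this generation by a fixed rule, the largest difference relative to the median of the other generations, were Aadat and Lox, higher in 25L, and Mup5 and Olah, lower. Lox crosslinks collagen, and was at 9.70 in the primary tumor of 25L and at the floor in 25R. Mup5, a lipocalin of the major urinary protein family, was at 7.93 in 25L and 11.23 in 25R, with a difference of -3.30, and the other 2 probe sets gave -2.99 and -3.46. Probe sets of this family can detect related genes. Luminal genes were lower in 25L, with 4 of 21 at least 2-fold lower and 0 higher (median -0.62), and Krt8, a luminal keratin, was at 9.93 in 25L against 11.11 in 25R. The marker sum of luminal epithelium was 12.54 in 25L and 13.52 in 25R, and that of fibroblasts was 14.28 in 25L and 10.72 in 25R. The part of the amount of stroma in the other differences was not tested.

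At transplant 1 many macrophage and antigen presentation genes were lower in 25L, and matrix genes, with 5 of 26 at least 2-fold lower and 0 higher (median -0.72), were on the other side than in the primary tumors. Of 17 macrophage genes 10 were at least 2-fold lower and 0 higher (background 3.69% lower and 1.42% higher), with a median of -1.22, or -0.95 with quantile normalization and 8 genes lower. C1qa, a complement subunit made by macrophages, was at 7.87 in 25L and 9.29 in 25R. Of 20 antigen presentation genes 8 were at least 2-fold lower (median -0.63), among them RT1-Ba, a class II chain, at 6.92 in 25L and 9.23 in 25R, and Cd74, the class II invariant chain, at 9.57 in 25L and 11.21 in 25R. Matrix proteases were lower too, with 6 of 14 at least 2-fold lower (median -0.89). With quantile normalization the antigen presentation median was -0.37, with 8 genes lower, and the protease median -0.60, with 5 lower. The macrophage marker sum was 10.00 in 25L and 10.80 in 25R, and their part in the difference of the antigen presentation genes was not tested.

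The same rule, which compares a generation with the median of the others, singled out Vipr2, Clca1, Smim38 and Cxcl9 at transplant 1. Vipr2, a receptor for vasoactive intestinal peptide, was at 9.22 in 25L and 5.95 in 25R, and it was lower in 25L in 4 of the other 5 generations. Clca1, a secreted regulator of chloride channels, was at 10.42 in 25L and 9.74 in 25R at transplant 1, and at transplants 2 to 5 its difference lay between -3.51 and -2.30. Clca1 was also higher in 25L in the primary tumors, where its difference was 1.85, larger than the 0.68 at transplant 1. Smim38, a small membrane protein, was at 8.04 in 25L and 10.70 in 25R. This gap was not particular to transplant 1, as the difference was -2.12 in the primary tumors and -1.58 at transplant 3. At transplants 2, 4 and 5 the difference of Smim38 was 0.79, 2.28 and 0.94. Cxcl9, an interferon-induced chemokine that draws T cells, was at 6.30 in 25L and 8.47 in 25R.

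At transplant 2 most listed skeletal muscle and interferon genes were higher in 25L, and genes of hypoxia and cell division were lower. Of 14 muscle genes 9 were at least 2-fold higher and 0 lower (background 1.63% higher and 3.37% lower), with a median of 1.20. Acta1, the actin of skeletal muscle, had log2 levels of 6.80, 7.65, 11.08, 12.36, 7.98 and 5.31 from the primary tumor to transplant 5 of 25L, against 5.31, 8.13, 5.31, 11.52, 5.44 and 5.31 in 25R. It was high in both lines at transplant 3, and at transplant 2 it was high in 25L and at the floor in 25R. The difference of 5.77 is a lower bound. Myl1, a muscle myosin light chain, was at 9.64 in 25L and at the floor in 25R. The summed muscle marker level was 11.50 in 25L and 7.94 in 25R at transplant 2, and 13.24 in 25L and 12.07 in 25R at transplant 3.

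Of 20 genes of the interferon list 11 were at least 2-fold higher and 0 lower in 25L at transplant 2 (median 1.03). By any amount 19 of 20 were higher (3446 of 8509 in all). Mx2, an antiviral GTPase, was at 10.62 in 25L and 7.41 in 25R. Irf7, the transcription factor that amplifies interferon production, was at 9.84 in 25L and 6.97 in 25R, and Rsad2, an antiviral enzyme, was at 8.11 in 25L and 5.70 in 25R. In 25R all of them were at their lowest level of the 6 tumors at transplant 2. In the primary tumors the same list had a median of -0.52, so that its side was not kept. The interferon-induced gene Ifitm1 went the other way than the list at transplant 2, at 7.97 in 25L and 9.56 in 25R.

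Of 28 genes of hypoxia and glycolysis 12 were at least 2-fold lower and 0 higher in 25L at transplant 2, with a median of -0.91. With quantile normalization 9 were lower and the median was -0.72. Vegfa, the main growth factor for vessels, was at 8.30 in 25L and 9.65 in 25R. Slc2a1, the basal glucose transporter, was at 9.38 in 25L and 10.55 in 25R. Pfkfb3, an enzyme that speeds glycolysis, was at 6.58 in 25L and 8.30 in 25R. At transplants 4 and 5 the list was on the other side, with medians of 0.38 and 0.43. At transplant 4, 3 of its genes were at least 2-fold higher and 2 lower in 25L, and 23 of 28 were higher by any amount, beside 4674 of 8509 genes in all. At transplant 5, 5 were at least 2-fold higher and 0 lower, and 27 of 28 were higher by any amount, beside 4435 of 8509 in all.

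Cell division genes were lower in 25L at transplants 2 and 3. Of 16 mitosis genes 6 were at least 2-fold lower at transplant 2 and 10 at transplant 3, with 0 higher at either (background 2.42% lower at transplant 3), and the medians were -0.90 and -1.18. With quantile normalization 4 were lower at transplant 2 (median -0.70) and 11 at transplant 3 (median -1.17). Bub1b, a kinase of the spindle checkpoint, was at 6.99 in 25L and 8.36 in 25R at transplant 2, and at 5.98 in 25L and 8.04 in 25R at transplant 3. Mki67, a marker of cycling cells, had a difference of -1.30 at transplant 3 and was on the other side at transplant 4, at 9.04 in 25L and 8.01 in 25R. Of 23 DNA replication genes 4 were at least 2-fold lower at transplant 2 and 5 at transplant 3, and Mcm6, a subunit of the replicative helicase, was at 6.73 in 25L and 8.16 in 25R at transplant 3. The median of the mitosis list was 0.51 in the primary tumors and between -0.18 and 0.30 at transplants 1, 4 and 5. Both generations with lower division genes were also those with the most muscle RNA in 25L, and the part of the muscle in this difference was not tested.

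**Figure D4:**
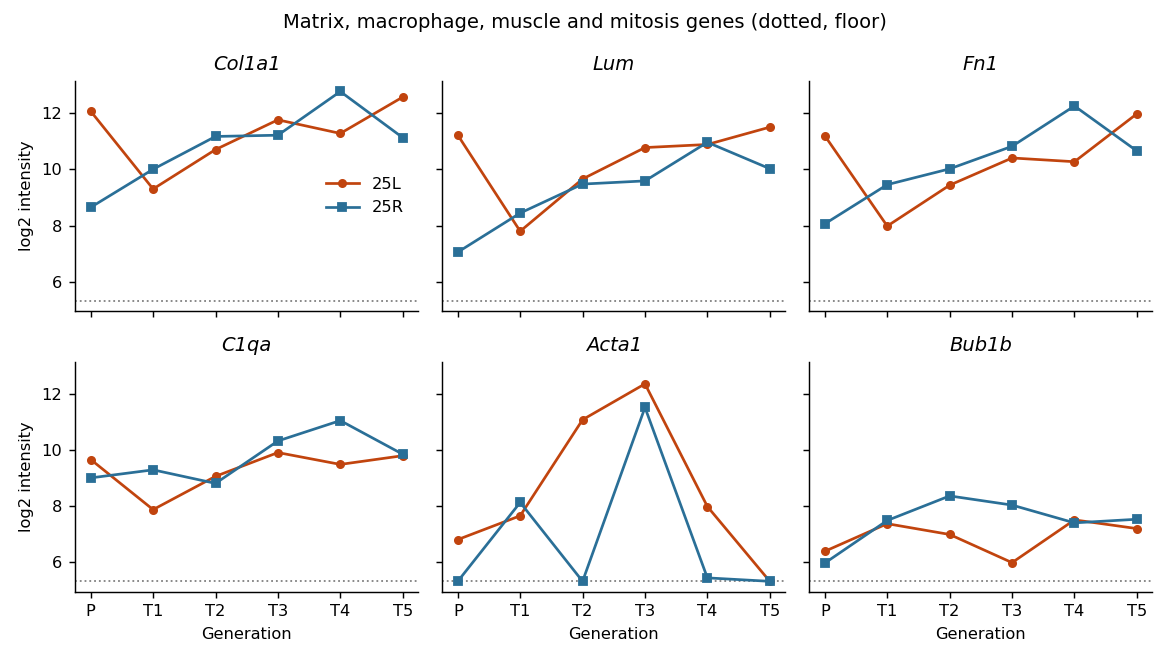
Log2 intensity (y axis) by generation (x axis, P primary tumor, T1 to T5 transplants) of Col1a1, Lum, Fn1, C1qa, Acta1 and Bub1b, with circles for 25L, squares for 25R and a dotted line at the floor; each point is 1 array. The matrix genes are higher in 25L in the primary tumors and at transplant 5, with Col1a1 at 12.58 in 25L and 11.14 in 25R at transplant 5, and Bub1b is lower in 25L at transplants 2 and 3.

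Milk protein genes were far higher in 25L at transplants 3 and 4. The promoters of the beta-casein gene Csn2, the alpha-casein gene Csn1s1 and the whey protein gene Wap are shown because the results turn on these genes and because STAT5 acts on milk genes. They run from 250 bases before to 50 bases after the start site, were taken from RefSeq (GRCr8), and are printed on the gene's strand with the letters TTCNNNGAA, a palindrome that STAT proteins bind, in capitals where found. Csn2 lies at chr14:20601574-20601873 on the plus strand, Csn1s1 at chr14:20638800-20639099 on the minus strand and Wap at chr14:85719110-85719409 on the minus strand.
Csn2: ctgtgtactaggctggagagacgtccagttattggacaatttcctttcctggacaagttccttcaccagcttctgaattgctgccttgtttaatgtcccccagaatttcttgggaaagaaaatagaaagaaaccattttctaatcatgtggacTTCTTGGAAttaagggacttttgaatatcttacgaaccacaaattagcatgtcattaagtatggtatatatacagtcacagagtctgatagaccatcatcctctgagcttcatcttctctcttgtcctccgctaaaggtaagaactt
Csn1s1: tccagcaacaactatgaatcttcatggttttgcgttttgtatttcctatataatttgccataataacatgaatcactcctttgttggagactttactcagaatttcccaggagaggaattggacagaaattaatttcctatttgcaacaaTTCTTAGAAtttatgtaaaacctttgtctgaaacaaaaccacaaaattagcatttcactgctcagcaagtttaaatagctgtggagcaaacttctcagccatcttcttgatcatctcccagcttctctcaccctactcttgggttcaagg
Wap: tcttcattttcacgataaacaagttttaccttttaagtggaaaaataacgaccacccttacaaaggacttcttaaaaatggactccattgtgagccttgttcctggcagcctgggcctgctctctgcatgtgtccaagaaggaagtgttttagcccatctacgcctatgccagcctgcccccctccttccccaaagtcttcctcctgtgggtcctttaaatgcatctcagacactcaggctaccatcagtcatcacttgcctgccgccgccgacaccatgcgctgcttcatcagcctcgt

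The motif starts 97 bases upstream of the start site in Csn2 (TTCTTGGAA) and 100 bases upstream in Csn1s1 (TTCTTAGAA), and these letters are not in the window of Wap. Of the 13 milk genes tested that have a promoter in the table, 3 hold the motif, the other being Glycam1, with TTCCCAGAA 175 bases upstream. For comparison, 8.87% of 33469 promoters of this length and 6.63% of 7816 promoters of tested genes hold it. A match is a description of the sequence and says nothing of binding in these tumors.

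Of 14 milk genes 9 were at least 2-fold higher in 25L at transplant 3 and 10 at transplant 4, with 0 lower at either (background 3.38% higher at transplant 3 and 3.29% at transplant 4). The medians were 1.68 and 2.01, and 14 of 14 and 13 of 14 genes were higher by any amount, beside 4290 and 4674 of 8509 genes in all. At transplant 1, 5 of 14 were already at least 2-fold higher in 25L and 0 lower (background 1.42% higher and 3.69% lower), with a median of 0.45. At transplant 2, 1 was at least 2-fold higher and 2 lower (median 0.29). Csn2 had log2 levels of 5.31, 10.14, 7.34, 12.05, 9.87 and 5.31 from the primary tumor to transplant 5 of 25L, against 5.40, 7.50, 8.91, 5.31, 5.31 and 5.31 in 25R. It was on in both lines at transplants 1 and 2, was at its highest in 25L at transplant 3, and was at the floor in 25R from transplant 3 on. Wap was at 5.31, 9.33, 6.69, 11.54, 9.82 and 5.31 in 25L, against 5.31, 8.07, 7.34, 5.31, 5.31 and 5.31 in 25R. With 25R at the floor, the differences of 6.73 for Csn2 and 6.23 for Wap at transplant 3 are lower bounds. Both genes were at the floor in both lines at transplant 5.

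Csn1s1 stayed bright for longer in 25R. Its log2 levels were 11.84, 13.08, 12.60, 13.23, 13.01 and 10.73 in 25L, against 12.08, 12.35, 12.33, 11.34, 7.87 and 9.95 in 25R. Lalba, the alpha-lactalbumin that lactose synthesis needs, was at 10.72, 12.89, 12.41, 12.90, 12.65 and 11.17 in 25L, against 12.15, 12.57, 12.05, 10.20, 5.79 and 10.46 in 25R. The gap of these genes was thus widest at transplant 4, where 25R was at its lowest, and under 1 log2 unit at transplant 5. Csn3, the kappa-casein that stabilises micelles, was at 13.27 in 25L and 9.84 in 25R at transplant 4, and it differed by at most 0.74 in size at the other generations. Olah, the thioesterase that releases medium-chain fatty acids for milk fat, was higher in 25R in the primary tumors, at 10.52 in 25L against 11.79 in 25R, and higher in 25L by 4.70, 4.78 and 3.66 at transplants 3, 4 and 5. Csap1, known as a common salivary protein, was at 12.54 in 25L and at the floor in 25R at transplant 4. Over all generations no milk gene was called, although the list's median difference was 0.78, beside -0.05 for all genes.

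**Figure D5:**
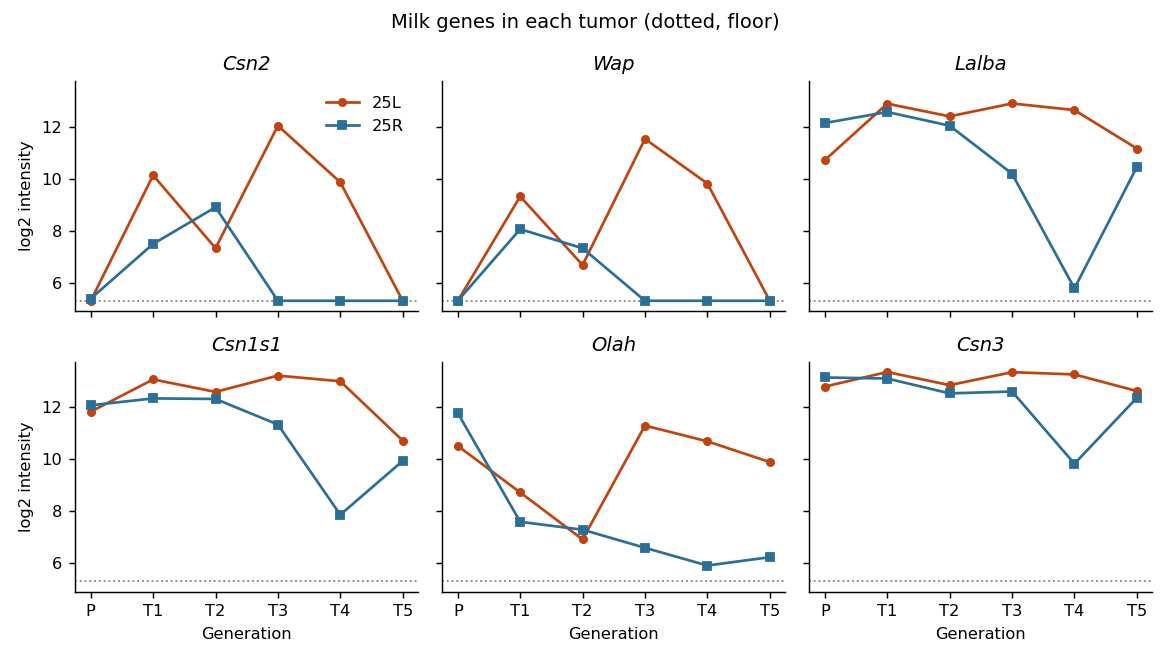
Log2 intensity (y axis) of milk genes by generation (x axis, P primary tumor, T1 to T5 transplants), with circles for 25L, squares for 25R and a dotted line at the floor of 5.31; each point is 1 array. Csn2 and Wap are at the floor in 25R at transplants 3 and 4 while they are between 9.82 and 12.05 in 25L, and Lalba in 25R reaches 5.79 at transplant 4.

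At transplant 3, Areg, an EGF receptor ligand downstream of estrogen in the mammary gland, was at 5.58 in 25L and 9.45 in 25R, and Cxcl9 was at 7.65 in 25L and 9.39 in 25R. Areg was also lower in 25L at transplant 2, at 6.94 against 10.44 in 25R, and within 1.05 of 25R at the other generations. Muscle genes were again higher, with 8 of 14 at least 2-fold higher in 25L (median 1.04), or 5 of 14 with quantile normalization (median 0.92). Myh11, a smooth muscle myosin of myoepithelium and vessels, was at 10.51 in 25L and 7.48 in 25R. This was not particular to transplant 3, as its difference was 3.07, 1.71 and 1.51 at transplants 2, 4 and 5. In the primary tumors and at transplant 1 it was -0.46 and -0.92. The median of the basal myoepithelium list was 0.17 at transplant 3.

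Transplant 4 had the most genes 2-fold apart, and the tumor of 25R stood at an extreme of several lists there. Of 26 fibroblast matrix genes 15 were at least 2-fold lower and 1 higher in 25L (background 3.81% lower and 3.29% higher), with a median of -1.09. Of 17 macrophage genes 13 were at least 2-fold lower and 0 higher (median -1.37), as were 8 of 14 matrix proteases (median -1.07) and 7 of 20 antigen presentation genes. The median of the antigen presentation list was -0.20, and 8 of its 20 genes were higher in 25L, beside 4674 of 8509 genes in all. Col12a1, a collagen that lies on the surface of fibrils, was at 7.08 in 25L and 10.73 in 25R. Lyz2, the macrophage lysozyme, was at 10.58 in 25L and 12.59 in 25R. Tnc, a matrix protein of remodelling stroma, was at 7.94 in 25L and 10.65 in 25R. At transplant 4 the fibroblast marker sum was 13.45 in 25L and 14.69 in 25R, the macrophage sum 10.93 in 25L and 12.38 in 25R, and the milk sum 14.15 in 25L and 10.04 in 25R. The 25R values were the extremes of the 6 tumors of 25R. The part of stroma and macrophages in the lower epithelial values of 25R was not tested.

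Higher in 25L at transplant 4 were genes of lipid synthesis and hormone response beside the milk genes. Of 18 lipogenesis genes 8 were at least 2-fold higher and 0 lower (median 0.93), and of 16 hormone response genes 4 were higher and 1 lower (median 0.74). Scd, a desaturase that makes monounsaturated fatty acids, was at 7.33 in 25L and 5.47 in 25R. Fasn, the fatty acid synthase, was at 10.31 in 25L and 9.16 in 25R. Pgr, the progesterone receptor, was at the floor in 25R and at least 1.69 above it in 25L, and Igfbp2, a binding protein for insulin-like growth factors, was at 10.75 in 25L and 8.45 in 25R. Luminal genes were 6 higher and 1 lower of 21 (median 0.43), with Krt19, a luminal keratin, at 11.46 in 25L and 10.11 in 25R. Car3, the carbonic anhydrase of muscle and fat, was at the floor in 25L and at 9.64 in 25R. Arpp21, a phosphoprotein regulated by cyclic AMP, was at 6.60 in 25L and 9.25 in 25R. Its other 2 probe sets had mean levels of 5.70 and 5.37, at or near the floor, and so give no check of this difference.

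At transplant 5, with the fewest genes 2-fold apart, matrix genes were again higher in 25L. Of 26 fibroblast matrix genes 14 were at least 2-fold higher and 0 lower (background 2.15% higher and 0.858% lower), 26 of 26 were higher by any amount (4435 of 8509 in all), and the median was 1.20. Of 14 mesenchymal genes 6 were at least 2-fold higher (median 0.83). Col1a1 was at 12.58 in 25L and 11.14 in 25R, and S100a4, a calcium-binding protein of motile and stromal cells, was at 11.50 in 25L and 9.36 in 25R. Mfap4, a protein of elastic fibers, was at 10.93 in 25L and 8.18 in 25R. Mmp3, the protease stromelysin, was at 12.04 in 25L and 9.89 in 25R. Fhip2b and the uncharacterised LOC102552398 were at the floor in 25L, while in 25R Fhip2b was at 8.29 and LOC102552398 at 9.01. The milk list had 1 of 14 genes at least 2-fold higher and 1 lower, the mitosis list 0 of 16 either way, and the interferon list 1 of 20 higher and 0 lower.

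The fibroblast genes thus crossed from one side to the other more than once. Col1a1 had log2 levels of 12.08, 9.30, 10.71, 11.77, 11.29 and 12.58 from the primary tumor to transplant 5 of 25L, against 8.65, 10.01, 11.18, 11.22, 12.78 and 11.14 in 25R. It was highest in 25L at both ends of the passage and highest in 25R at transplant 4. Fn1, fibronectin, was at 11.20, 7.98, 9.44, 10.41, 10.28 and 11.99 in 25L, against 8.06, 9.46, 10.02, 10.83, 12.27 and 10.66 in 25R, and was likewise higher in 25L in the primary tumors and at transplant 5. The mean difference over 6 generations was 0.46 ± 0.53 for Col1a1 (SE, n = 6 pairs), within the spread over generations.

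The last questions were whether the lines drifted apart with passage and whether their transplants stood differently to their own primary tumors. For the trend of the difference over generations limma called 0 of 8509 genes (0%), beside 1221 (14.3%) with p under 0.05 before adjustment. Aldh3a1 came nearest, at an adjusted p of 0.0615. Without the tumors of transplant 5 the trend was called for 58 genes, with all 65 arrays in 1 fit for 151 and with array weights for 1, so this count rests on those choices. For the change between primary tumor and transplants, 1 gene (0.0118%) was called, Aadat, and 257 (3.02%) had an unadjusted p below 0.05. Without the tumors of transplant 1, 4 or 5 the count was 2, 5 or 27 genes.

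Aadat, an aminotransferase of lysine and tryptophan breakdown, had log2 levels of 10.34, 6.62, 5.77, 5.31, 6.66 and 6.99 in 25L, against 6.00, 7.18, 7.62, 7.31, 8.72 and 8.77 in 25R. The primary tumor of 25L was far above its transplants, while in 25R the primary tumor was the lowest of the line. The transplants stood at -4.07 relative to the primary tumor in 25L and at 1.92 in 25R, and the difference of these changes was -5.99 ± 0.56 (SE), with a limma adjusted p of 0.00648. The primary tumor is 1 array in each line, so the value rests on that pair of arrays. The call was lost without the generation factor (adjusted p = 0.295), with all 65 arrays in 1 fit (0.595) and without a filter on dim probe sets (0.954), and Aadat was below the filter set at the median.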

How the data were processed

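Gene expression was measured on Affymetrix rat arrays from frozen tumor tissue, with 6 µg of total RNA labelled with biotin, per the labels' protocols. The authors deposited 1 linear intensity per probe set and array, between 1 and 12011. No source used here states their probe summary or normalization. The values carry no counts or depth, so the number of arrays limits the precision, and the labels give no batch or scan date.

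Each array was scaled to a common median of 162 over the 15866 probe sets that are not controls, with 57 control probe sets left out. Intensities below 39.8, the 10th percentile of all values, were raised to that value before taking log2 (floor 5.31). The log2 values were thus made here from the deposited intensities. Of the 15866 probe sets, 12783 had 1 gene symbol, 312 several and 2771 none, and 12748 had a gene identifier that matched GRCr8. The brightest probe set stood for each of 10411 genes, and 8509 with a mean log2 of at least 6.32 (the 25th percentile) were tested. The mean for this filter was taken over the arrays of 25L and 25R, without the other series. No arrays held identical values.

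Tests used limma 3.58.1 in R 4.3.3 (lmFit and eBayes, two-sided, Benjamini-Hochberg over 8509 genes, threshold 0.05) on the 12 arrays, with generation as a factor and line as the term tested. A line-by-generation term gave the trend, and a line-by-transplant term gave the change. The fit was tested on simulated data. Values at 1 generation and gene lists are descriptions, given as counts past 2-fold and medians beside those of all genes.

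The tumors, the 27 gene lists and the tests were chosen with earlier results of these data known. Named genes were the called genes, the 2 each way per generation with the largest difference relative to the median of the other generations, and the cell type markers. That rule named no gene for the line difference, so the 8 each way on the same side in 6 of 6 generations were added after their values were seen. Members quoted as examples from lists were also chosen after their values were seen. Alternatives were other scalings, floors, filters and probe set rules, array weights, the Gapdh ratio as a covariate, all 65 arrays in 1 fit, no generation factor, and leaving out each generation.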

Additional observations from a re-analysis of the deposited data

Results flagged for a closer look

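Within each line, 74 sets of 6 values of a named gene were examined for a single tumor far from the rest, and 10 of them, in 8 genes, held one. Chance gives about 1 in 20 such sets, but many of these genes were named for their difference at a single generation, so the number cannot be read against that rate. Aadat was at 10.34 in the primary tumor of 25L, against 5.31 to 6.99 in its transplants. Csap1 was at 6.56 in the primary tumor of 25L, against 11.11 to 12.76 in the others. Olah was at 11.79 in the primary tumor of 25R, against 5.92 to 7.60 in its transplants. These 3 sets separate a primary tumor from its own transplants.

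Transplant 3 stood apart in muscle genes. Atp2a1 was at 11.16 there in 25L, against 6.61 to 8.29 in the other tumors of that line, and at 9.47 in 25R, against 6.27 to 6.61. Ckm was at 9.71 in 25R, against 5.78 to 6.17, and Myl1 was at 10.92 in 25R, with the other 5 tumors at the floor. The summed level of the muscle markers was highest at transplant 3 in both lines.

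Lalba was at 5.79 at transplant 4 of 25R, against 10.20 to 12.57 in the other tumors of that line. Fhip2b was at the floor, 5.31, at transplant 5 of 25L, against 7.59 to 8.78 in the others, and likewise at 5.31 at transplant 4 of 25R, against 7.92 to 8.29.

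The change between primary tumor and transplants differed between the lines for Aadat by -5.99 on the log2 scale (limma adjusted p = 0.00648). The primary tumor is 1 array in each line, so the p takes its spread from the transplants. The gene was not called with no generation factor, with all 65 arrays in 1 fit, with no filter on dim probe sets or with the filter at the median, where it was not tested. The transplants were lower than the primary tumor in 5 of 5 tumors of 25L and higher than it in 5 of 5 tumors of 25R.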

How the results depend on the processing

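No gene was called higher or lower in 25L over 25R under any of the 17 alternatives, with smallest adjusted p-values from 0.112 (without the primary tumors) to 1.00. No gene was 2-fold apart throughout, except that leaving out a generation gave 0 to 1, the 1 being Fcgr2b without the primary tumors. The number of genes with a trend (0) was 151 with all 65 arrays in 1 fit, 1 with array weights, and 0 to 58 when a generation was left out (58 without transplant 5). The number with a differing change (1) was 0 with no replicate block, with all 65 arrays in 1 fit, with no filter on dim probe sets and with the filter at the median, 2 with array weights, and 1 to 27 when a transplant generation was left out. The cause was not tested. With array weights or without transplant 5, the trend of Aldh3a1 was called (adjusted p 0.0363 and 0.0405). Over its alternatives that p ran from 0.0363 to 0.492, and that of Aadat from 0.00041 to 0.954. Without a floor the differences were 8.53 for Acta1 at transplant 2 and -8.30 for Fhip2b at transplant 5. All 96 list medians moved by less than their spread over generations, although that of the fibroblast list was -0.21 without the primary tumors. Nothing that had passed a test reversed.

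Generation numbers were checked for pairing: the deviations of same-generation tumors from their line's mean correlated at 0.24, 0.03, 0.07, 0.13, -0.24 and -0.06 from the primary tumor to transplant 5, and 0 of 6 matched their own generation best. The generation factor was kept because the comparison is defined by generation. Without that replicate block 387 genes, against 285 with it, had an unadjusted p below 0.05 for the line difference, and 0 were called.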

Other observations

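The markers of cell types not described above ranged from the floor to well above it. Cd79b, the sole B cell marker on the array, was at the floor on all 12 arrays. The 1 gene tested of the B and plasma cell list lay between 6.26 and 7.23 in 25L and between 6.38 and 7.06 in 25R. Mast cell RNA was highest in both lines between transplants 1 and 3: Cpa3, the mast cell carboxypeptidase, peaked at 8.13 in 25L at transplant 3 and at 9.24 in 25R at transplant 1, and the summed level of 4 mast cell markers was 9.02 in 25L and 10.91 in 25R at transplant 1. Of 6 granulocyte genes 4 were higher in 25L at transplant 1 (median 0.39) and 1 at transplant 5 (median -0.67), and 1 was at least 2-fold lower at each. Over all 8509 genes, 3133 were higher at transplant 1 and 4435 at transplant 5, and 3.69% and 0.858% were at least 2-fold lower. The granulocyte marker S100a9 went the other way than the granulocyte median at transplant 1, at 5.32 in 25L and 7.60 in 25R. The summed level of 2 granulocyte markers was 6.32 in 25L and 7.90 in 25R there. Krt7, a luminal keratin, differed by -1.29 to -0.65 up to transplant 4 and by 0.29 at transplant 5, with a mean difference of -0.86 ± 0.21 (SE, n = 6 pairs) and a limma adjusted p of 0.965. Fcgr2b, an inhibitory antibody receptor of macrophages and B cells, was at 6.96, 5.31, 5.43, 6.45, 6.09 and 6.05 in 25L, against 5.31, 6.54, 6.92, 7.48, 8.80 and 7.38 in 25R, and so was higher in 25L in the primary tumors and more than 2-fold lower in all 5 transplants. These genes were chosen after their values were seen.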
